A study of Oryza sativa Indica Group with 6 samples.

Results

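Small heat shock proteins and heat shock factors (HSFs) were examined in rice seedlings of the semi-dwarf mutant *sd37* and of its wild type. A gene was included when its symbol or a synonym, with a leading Os ignored, was HSP followed by a size of 16 to 26 kDa with a decimal, or HSFA, HSFB or HSFC followed by a number. Of 45 such genes in the annotation, 39 were measured by probe sets of a single gene, 19 for small heat shock proteins and 20 for HSFs, out of 17905 genes measured in all. The 39 genes had 55 probe sets, and for the 12 genes with several the probe set of highest mean was used. No such probe set was found for *HSP16.9C*, *HSP18.9*, *HSP19.0*, *HSFA6A*, *HSFB4C* and *HSFC2B*.

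Affymetrix Rice Genome Arrays were used, 3 of *sd37* and 3 of the wild type, each with the total RNA of a sample and numbered as biological replicates 1 to 3 in each genotype. The *sd37* plants carry a spontaneous point mutation in *CYP96B4*, a cytochrome P450 gene, in the *indica* cultivar 3037, and the wild type is 3037 without it, so the mutant genotype is represented by 1 line. All plants were 2-week-old seedlings from MS pots in a phytotron with 16 h of light at 26°C and 8 h of dark at 18°C, and the labels name no heat treatment of any group. The labels and the methods name seedlings as the tissue, a footnote to the study's gene list speaks of apices, and the labels and methods name different RNA extractions, so the part of the plant sampled is not certain. In such bulk samples fewer cells of a type and less RNA per cell cannot be told apart.

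Small heat shock proteins are chaperones that bind unfolding proteins without using ATP and keep them from aggregating until other chaperones refold them. Plants have separate classes of them in the cytosol, endoplasmic reticulum, mitochondria, chloroplasts and peroxisomes, and most are scarce until heat or another stress, although some accumulate during seed and organ development. HSFs bind heat shock elements in promoters as trimers. Class A factors carry an activation domain, class B factors lack it and are mostly repressors, and class C factors are less well known.

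The values are linear probe set signals, with no detection calls, and their precision is limited by the number of arrays. The 2 arrays of replicate 1 stood apart from the other 4. Their median signals were 56.2 for *sd37* and 51 for the wild type, against 32.3 to 34.3 in replicates 2 and 3, and the geometric mean of 18 hybridization control probe sets was 6089 for *sd37* and 5426 for the wild type of replicate 1, against 3008 to 3234 in replicates 2 and 3. Marker genes differed as well. The 3 floral transition genes *MADS14*, *MADS15* and *MADS18*, which act in the change of the shoot apex to flowering, summed to 1326 to 1999 in replicate 1, against 15416 to 18248 in replicates 2 and 3, and all 3 were lower. Of 6 clock genes, *GI*, *PRR37* and *PRR73* were higher and *PRR1* was lower in replicate 1, while *CCA1* and *PRR95* were not called, with sums of 90798 to 96378 against 51152 to 62200. The 2 green leaf genes *CAB2R* and *rbcS* were both higher, with sums of 113372 to 134744 against 38118 to 56097. Of 2 root genes *IRT1* was higher and *NAS1* was not called, with sums of the 2 of 264 to 376 against 131 to 240. In replicate 1 *NAS1* was higher among the *sd37* arrays, by 1.99 on the log2 scale, and lower among the wild-type arrays, at -1.13. None of these markers was at 0 on any array, but *MADS14* and *MADS15* were below 100 in replicate 1, and *NAS1* was as low as 6.7. The planned shoot meristem markers *OSH1* and *OSH15* were not among those examined. The part of the markers in the results below was not tested. The sources used here do not give what differed between replicate 1 and the other replicates besides the number in the title, so the number and its cause cannot be told apart.

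The first comparison asked whether the heat shock genes were expressed differently in *sd37* than in the wild type. Differences are log2 *sd37* minus wild type from limma, and a gene was called where p, adjusted by Benjamini-Hochberg over all 57258 probe sets, was under 0.05 and the change was at least 1.5-fold. With this test 0 of the 39 genes were called, and 0 of all probe sets (0%). At an unadjusted p under 0.05 limma gave 0 of the 39 genes, against 2.19% of all probe sets. An ordinary analysis of variance gave 1 of 39, against 2.91%, and called none after adjustment. The median difference was 0.04 over the small heat shock proteins, of which 10 were higher and 9 lower, and -0.04 over the HSFs, of which 8 were higher and 12 lower, beside 0.02 over all probe sets.

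**Figure D1:**
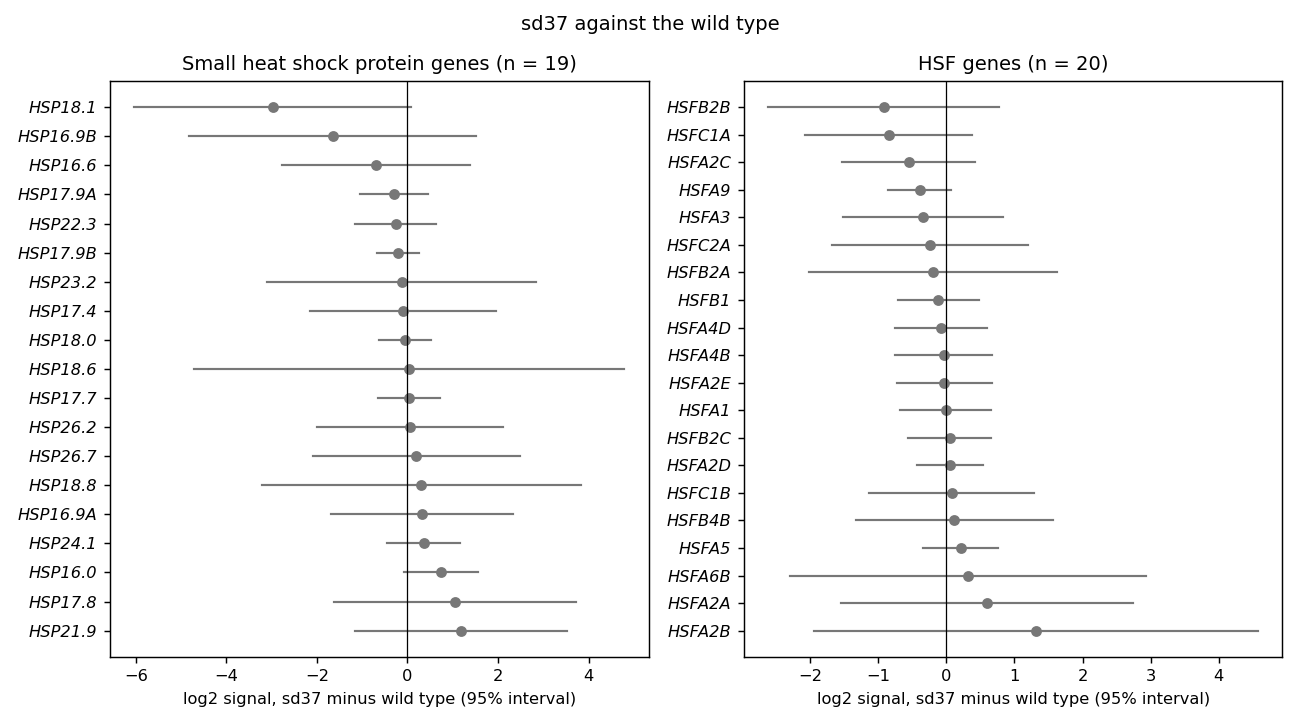
Each point is the log2 difference *sd37* minus wild type of 1 gene and each bar its 95% confidence interval from limma, with small heat shock proteins on the left and HSFs on the right. All 39 intervals include 0, and those of *HSP18.6* and *HSP18.8* are wide, with replicate 1 far from the other replicates in both genotypes.

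Among the small heat shock proteins, *HSP16.0*, whose product is a peroxisomal chaperone in rice, had signals of 392, 293 and 248 in the *sd37* arrays, against 252, 142 and 171 in the wild-type arrays. The groups overlapped by 1 array, the *sd37* array of replicate 3 being just below the wild-type array of replicate 1, and *sd37* was the higher genotype in each replicate number, with log2 differences of 0.64, 1.05 and 0.53. The estimate was 0.74 ± 0.35 (SE, adjusted p = 1), with a 95% interval of -0.08 to 1.55.

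*HSP18.6* was at 209, 9480.5 and 13163 in the *sd37* arrays, against 144, 12829.5 and 13055 in the wild-type arrays. In each genotype the array of replicate 1 was far below the other 2, so the groups overlapped fully, and the difference was 0.04 ± 2.06 (SE, adjusted p = 1). *HSP18.1*, a cytosolic class I protein, gave dim signals of 55.2, 5 and 1.4 in the *sd37* arrays, against 46.8, 82.5 and 49.3 in the wild-type arrays. No array of it reached 100, and the low values of *sd37* were those of replicates 2 and 3, while the *sd37* array of replicate 1 lay within the wild-type range. Its difference was -2.98 ± 1.32 (SE, adjusted p = 1), the furthest from 0 among the 39 genes and also among the least precise, with an interval of -6.03 to 0.07. It was -1.25 with a floor of 16 and -4.44 to -1.79 with an array left out, nearest to 0 without *sd37* replicate 3. Its probe set is of the class that may match other transcripts, and the gene's other probe set gave -0.999.

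*HSP24.1*, a mitochondrial small heat shock protein, gave 359.6, 856 and 668 in the *sd37* arrays, against 427, 449.6 and 505 in the wild-type arrays. The *sd37* arrays of replicates 2 and 3 were the highest and that of replicate 1 the lowest of all, so the groups overlapped, with a difference of 0.36 ± 0.35 (SE, adjusted p = 1), which was 0.0933 without *sd37* replicate 2 and 0.719 without *sd37* replicate 1. *HSP18.8* gave 9484, 851 and 664 in the *sd37* arrays, against 15921, 341 and 526 in the wild-type arrays. Replicate 1 was the highest in both genotypes, *sd37* was below the wild type there and above it in replicates 2 and 3, and the difference was 0.30 ± 1.53 (SE, adjusted p = 1).

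Among the HSFs, *HSFA9* was the only member whose genotypes did not overlap. Its signals were 1185, 1086 and 1234 in the *sd37* arrays, against 1483, 1527 and 1600.3 in the wild-type arrays. Every *sd37* array was below every wild-type array, with a difference of -0.40 ± 0.20 (SE, adjusted p = 1). Groups without overlap were found for 6.07% of all probe sets, 3.20% with *sd37* higher and 2.87% with *sd37* lower, and an exact permutation test of 3 against 3 arrays cannot give a p below 0.1. In sunflower, HSFA9 drives heat shock protein genes during seed maturation.

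*HSFC1A*, a class C factor, had signals of 178, 357 and 338 in the *sd37* arrays, against 226, 848 and 654 in the wild-type arrays. The *sd37* array was below the wild-type array of the same number in all 3 replicates, but the wild-type array of replicate 1 lay below both *sd37* arrays of replicates 2 and 3. The difference was -0.85 ± 0.53 (SE, adjusted p = 1), and within the replicate numbers it was -0.34, -1.25 and -0.95. Without wild-type replicate 2 it was -0.47 and without wild-type replicate 1 it was -1.42.

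The annotation gives *HSFA2C*, which in rice activates the gene of the cytosolic disaggregase ClpB, at a locus that also carries the name *ARD1*, an acireductone dioxygenase of the methionine salvage cycle. The sources used here do not say which of these transcripts each of its probe sets reads. The probe set used gave 1022, 413 and 557 in the *sd37* arrays, against 599.5, 1366 and 916 in the wild-type arrays. *sd37* was the higher genotype in replicate 1 and the lower in replicates 2 and 3, the groups overlapped, and the difference was -0.56 ± 0.42 (SE, adjusted p = 1), with -0.26 without wild-type replicate 2 and -0.92 without *sd37* replicate 1. The other probe set of the gene went the other way, at 0.37, with *sd37* higher in all 3 replicate numbers by 0.69, 0.21 and 0.21, so no genotype direction was given for *HSFA2C*.

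*HSFA3*, a factor downstream of DREB2A in *Arabidopsis*, was at 1366, 404 and 504 in the *sd37* arrays, against 1384, 616 and 663 in the wild-type arrays. *sd37* was below the wild type in all 3 replicate numbers, by little in replicate 1, with a difference of -0.34 ± 0.51 (SE, adjusted p = 1). *HSFA6B*, which acts in abscisic acid responses in *Arabidopsis*, gave 44.3, 118 and 116 in the *sd37* arrays, against 9.6, 187 and 173 in the wild-type arrays. The wild-type array of replicate 1 was near the bottom of the scale and those of replicates 2 and 3 were the highest, so the groups overlapped, with a difference of 0.32 ± 1.13 (SE, adjusted p = 1).

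**Figure D2:**
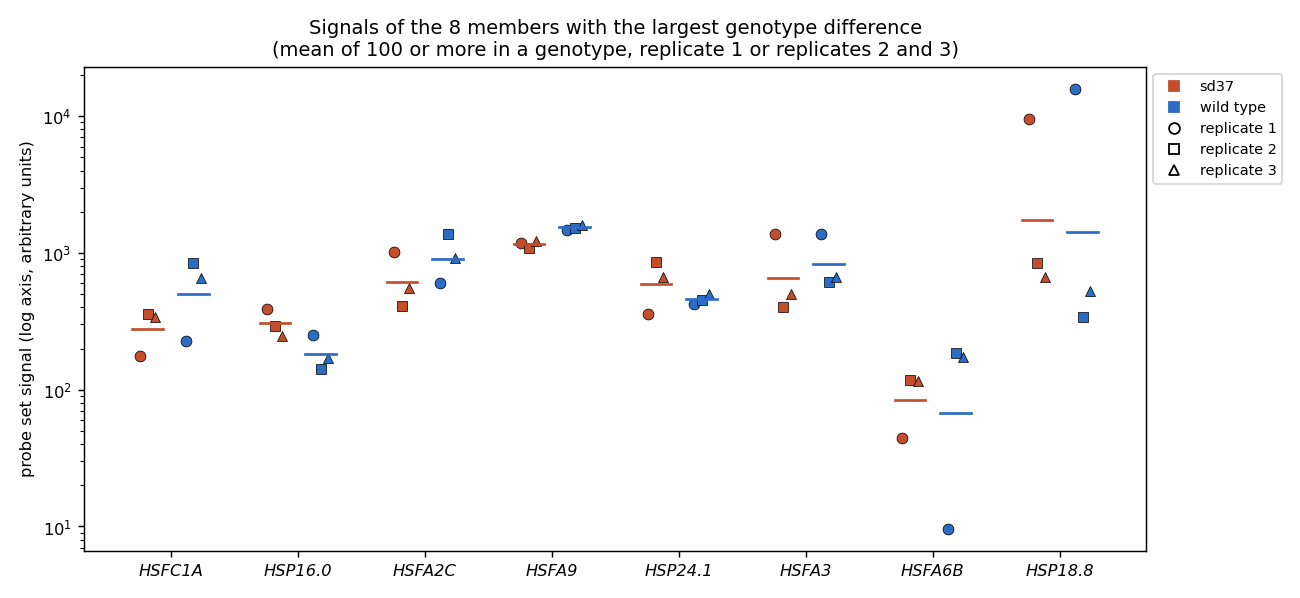
Probe set signals on a log axis, in arbitrary units, for the 8 genes with the largest genotype difference among those with a mean of 100 or more in either genotype, in replicate 1 or in replicates 2 and 3, with *sd37* left of the wild type for each gene, a symbol for each replicate number and a line at the mean of the log2 signals of each genotype. The 3 *sd37* points of *HSFA9* lie between 1086.5 and 1234, all below the wild-type points, and the circles of replicate 1 lie apart in *HSP18.8* and *HSFA6B*.

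The other 29 of the 39 genes had genotype differences between -1.65 for *HSP16.9B* and 1.32 for *HSFA2B*, both of them genes with no array at 100. In all, 10 members had no array at a signal of 100, namely *HSP16.6*, *HSP16.9A*, *HSP16.9B*, *HSP17.8*, *HSP18.1*, *HSP21.9*, *HSP26.7*, *HSFA2A*, *HSFA2B* and *HSFB2B*. At these signals a difference between the genotypes was not detectable unless it was large. Brighter genes were limited too. In simulated data with changes in probe sets of a mean of 100 or more, this test recovered 16% of log2 changes of 2 and 73.5% of those of 4. *sd37* was the higher genotype within all 3 replicate numbers for 4 genes, *HSP16.0*, *HSFA2B*, *HSFA2D* and *HSFA5*, and the lower within all 3 for 5 genes, *HSP22.3*, *HSFA3*, *HSFA9*, *HSFB1* and *HSFC1A*. The matching shares over all probe sets were not determined, so these counts are description only.

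Because replicate 1 stood apart, the comparison was also made with the replicate number as a block and, chosen after the data were seen, with the 4 arrays of replicates 2 and 3 alone. With the block limma again called 0 of the 39 genes, against 0.0105% of all probe sets, and 4 genes had an unadjusted p under 0.05, against 6.08%. These were *HSFC1A* (unadjusted p = 0.00392, adjusted p = 0.549), *HSFA9* (unadjusted p = 0.00953, adjusted p = 0.702), *HSP16.0* (unadjusted p = 0.00968, adjusted p = 0.705) and *HSP18.1* (unadjusted p = 0.0291, adjusted p = 0.787). Of the 26 members with a mean signal of 100 or more over all 6 arrays, called brighter members here, 3 had such a p, against 9.38% of the 20335 probe sets at that signal.

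Without replicate 1, again 0 of the 39 genes were called and 13 had an unadjusted p under 0.05, 10 with *sd37* lower and 3 with *sd37* higher, against 7.90% of all probe sets. Among the brighter members there were 10 of 26, 7 lower and 3 higher, against 13.3% of the probe sets at that signal. The 3 genes higher in *sd37* were *HSP16.0* (0.79 on the log2 scale), *HSP18.8* (0.83) and *HSP24.1* (0.67). Those lower were *HSP17.4* (-0.49), *HSP17.9A* (-0.70), *HSP18.1* (-4.59), *HSP23.2* (-1.44), *HSFA2C* (-1.22), *HSFA3* (-0.50), *HSFA6B* (-0.62), *HSFA9* (-0.43), *HSFC1A* (-1.10) and *HSFC2A* (-0.60). The other probe set of *HSFA2C* had 0.21. The smallest adjusted p among them was 0.189, for *HSFC1A*. These values rest on 2 arrays of each genotype.

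The second comparison set replicate 1 against replicates 2 and 3, with genotype in the fit. This contrast was chosen with earlier results of these data known, and its p-values do not account for that choice. Differences are log2 replicate 1 minus the mean of replicates 2 and 3. By the same rule 16 of the 39 genes were called, 4 higher and 12 lower in replicate 1, against 19.2% of all probe sets, 9.38% higher and 9.85% lower. The share was larger at brighter signals, where 42.0% of the probe sets with a mean of 100 or more were called, 17.7% higher and 24.3% lower. Of the 26 members at that signal 12 were called, 3 higher and 9 lower, which is a share near that of bright probe sets in general. Of the small heat shock proteins 2 were called higher and 4 lower, and of the HSFs 2 were called higher and 8 lower. The median difference was 0.62 over the small heat shock proteins and -0.47 over the HSFs, beside 0.39 over all probe sets and -0.13 over all bright ones.

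**Figure D3:**
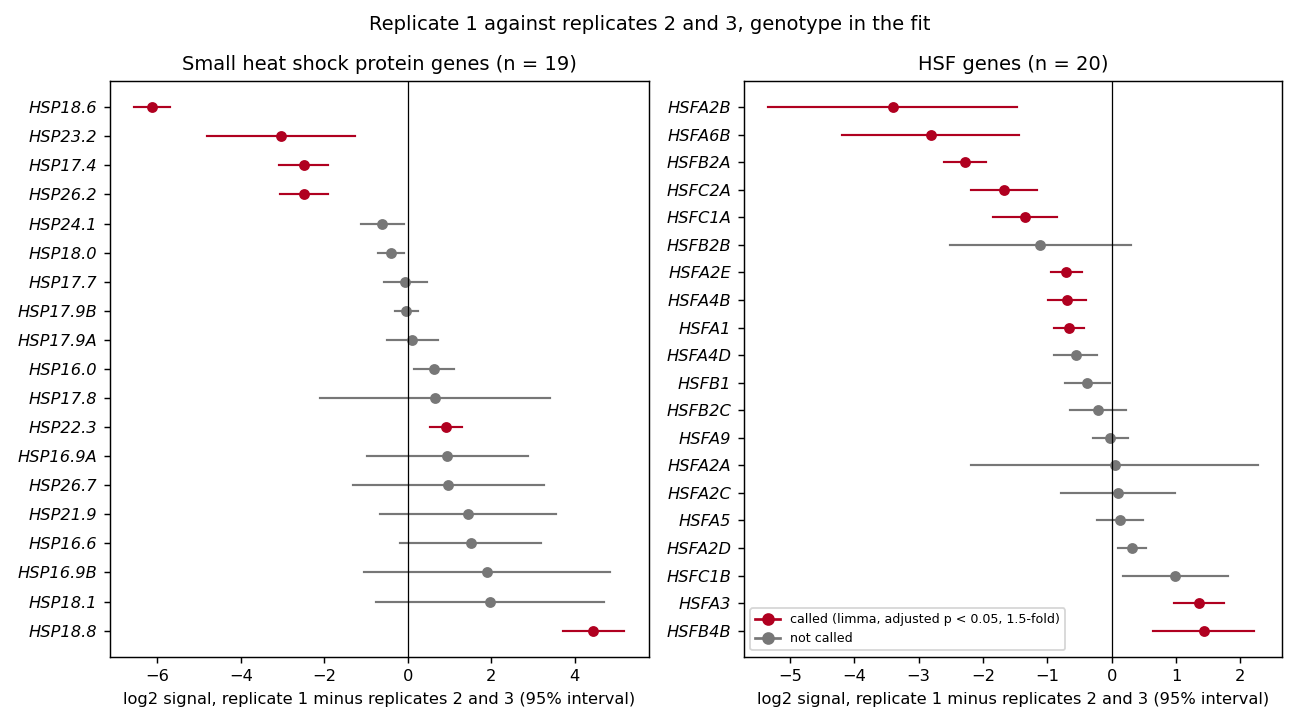
Each point is the log2 difference replicate 1 minus replicates 2 and 3 of 1 gene, with its 95% confidence interval from limma, for small heat shock proteins on the left and HSFs on the right, each panel with its own scale. Called genes are red, and the differences run from -6.12 for *HSP18.6* to 4.44 for *HSP18.8*.

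The widest gap was in *HSP18.6*, which had a signal of 209 on the *sd37* array and 144 on the wild-type array of replicate 1, against 9480.5 and 13163 on the *sd37* and 12829.5 and 13055 on the wild-type arrays of replicates 2 and 3. Replicate 1 was far below the others in both genotypes, with no overlap. The difference was -6.12 ± 0.19 (SE, adjusted p = 9.18e-07), which is 69.5-fold lower, and only 13 of the 57258 probe sets had a larger decrease, among them another probe set of this gene. The probe set used is of the class that Affymetrix marks as shared among similar transcripts. The other probe sets of the gene, without that mark, gave differences of -6.62 and -4.53 and were called lower as well.

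*HSP18.8* went the other way, with 9484 on the *sd37* array and 15921 on the wild-type array of replicate 1, against 851 and 664 on the *sd37* and 341 and 526 on the wild-type arrays of replicates 2 and 3. Both arrays of replicate 1 were above all the others, with a difference of 4.44 ± 0.32 (SE, adjusted p = 3.14e-05), or 21.8-fold higher. It was measured by a probe set of the class that Affymetrix marks as possibly matching other transcripts.

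*HSP17.4*, a cytosolic class I protein, was at 139 on the *sd37* array and 86.4 on the wild-type array of replicate 1, against 564 and 486 on the *sd37* and 709 and 759.9 on the wild-type arrays of replicates 2 and 3. Replicate 1 was the lowest in both genotypes, and the difference was -2.50 ± 0.26 (SE, adjusted p = 0.000212). Its neighbours in the RefSeq annotation are *HSP18.1* and *HSP17.7*, both class I genes as well. *HSP17.7*, whose overexpression raises the tolerance of rice to heat and ultraviolet light, showed -0.06 and *HSP18.1* showed 1.97, with neither called, so among the 3 adjacent genes only *HSP17.4* passed the test.

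*HSP26.2* gave 83.2 on the *sd37* array and 62.3 on the wild-type array of replicate 1, against 480.5 and 311 on the *sd37* and 399 and 440.4 on the wild-type arrays of replicates 2 and 3. It was lower in replicate 1 in both genotypes without overlap, at -2.48 ± 0.26 (SE, adjusted p = 0.000186), by a probe set that Affymetrix marks as shared among similar transcripts. *HSP23.2*, the product of which resides in the endoplasmic reticulum, gave 41.4 on the *sd37* array and 7.3 on the wild-type array of replicate 1, against 98.2 and 76 on the *sd37* and 208 and 266 on the wild-type arrays of replicates 2 and 3. Replicate 1 was again the lowest in each genotype, by less in *sd37*, where all 3 arrays were below 100. The difference was -3.03 ± 0.78 (SE, adjusted p = 0.0231). With a floor of 16 this call did not hold, at -2.47 (adjusted p = 0.124). That call was lost without any of the wild-type arrays, with differences of -1.06 (adjusted p = 0.147) without replicate 1, -2.83 (0.0742) without replicate 2 and -2.68 (0.0777) without replicate 3 of the wild type.

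*HSP22.3* was at 690.1 on the *sd37* array and 1001 on the wild-type array of replicate 1, against 408 and 435 on the *sd37* and 422 and 499 on the wild-type arrays of replicates 2 and 3. Replicate 1 was higher in both genotypes without overlap, at 0.92 ± 0.17 (SE, adjusted p = 0.00412). The call was lost without the wild-type array of replicate 1, at 0.71 (adjusted p = 0.0696). The peroxisomal *HSP16.0*, with the signals given above, was higher in replicate 1 in each genotype but not called, at 0.62 ± 0.21 (SE, adjusted p = 0.0688).

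The other 12 small heat shock proteins were not called. Among those with brighter signals, *HSP24.1* had -0.62, the class II cytosolic *HSP18.0* -0.41, *HSP17.9A* 0.10 and *HSP17.9B* -0.03. The 7 small heat shock proteins with no array at 100 ran from 0.65 for *HSP17.8* to 1.97 for *HSP18.1*, none of them called. All were above the median of all probe sets, 0.39, but the median of bright probe sets was lower, at -0.13. The median of dim probe sets alone was not determined, so these values are not a result about the members. *HSP17.9B* stands in a run of 5 adjacent genes with *HSP16.6*, *HSP16.9C*, *HSP16.9A* and *HSP16.9B*. Of the 4 genes of this run that were measured, 3 had no array at 100, while *HSP17.9B* was between 4417 and 6132 on all 6 arrays, in *sd37* and wild type alike.

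Among the class A factors, 6 of 12 genes were called, 1 higher and 5 lower in replicate 1. *HSFA3* had signals of 1366 on the *sd37* array and 1384 on the wild-type array of replicate 1, against 404 and 504 on the *sd37* and 616 and 663 on the wild-type arrays of replicates 2 and 3. Replicate 1 was above all other arrays, with a difference of 1.36 ± 0.17 (SE, adjusted p = 0.000514), or 2.56-fold higher. *HSFA1*, in tomato the master activator of the heat response, gave 1806 on the *sd37* array and 1793 on the wild-type array of replicate 1, against 2831 and 2849.8 on the *sd37* and 2830.3 and 2927 on the wild-type arrays of replicates 2 and 3. Replicate 1 was the lowest in both genotypes, by a similar amount, at -0.67 ± 0.10 (SE, adjusted p = 0.00164). The call was lost after quantile normalization, at -0.58, short of the 1.5-fold change, and without the intensity trend (adjusted p = 0.102).

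*HSFA2E* and *HSFA4B* showed decreases close to that of *HSFA1*, and that of *HSFA4B* also fell short of 1.5-fold after quantile normalization, at -0.58. *HSFA2E* gave 1302 on the *sd37* array and 1408 on the wild-type array of replicate 1, against 2199 and 2229 on the *sd37* and 2184 and 2226 on the wild-type arrays of replicates 2 and 3. Its difference, without overlap, was -0.71 ± 0.11 (SE, adjusted p = 0.00161). *HSFA4B* was at 839.8 on the *sd37* array and 998 on the wild-type array of replicate 1, against 1479 and 1551 on the *sd37* and 1524 and 1383 on the wild-type arrays of replicates 2 and 3. No array of replicate 1 reached the others, and the difference was -0.70 ± 0.13 (SE, adjusted p = 0.00462), which was -0.54 (adjusted p = 0.0624) without the *sd37* array of replicate 1.

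*HSFA6B*, with the signals given for the genotypes, was lower in replicate 1 in both genotypes. With a floor of 16 it was not called (adjusted p = 0.0683). On the deposited signals the difference was -2.81 ± 0.60 (SE, adjusted p = 0.0101). Within the genotypes it was -1.40 among the *sd37* arrays and -4.23 among the wild-type arrays, and the call was lost without the wild-type array of replicate 1, at -1.40 (adjusted p = 0.0511). *HSFA2B* was at 26 on the *sd37* array and 2 on the wild-type array of replicate 1, against 83.5 and 76.2 on the *sd37* and 77.2 and 69.4 on the wild-type arrays of replicates 2 and 3. Its difference was -3.41 ± 0.85 (SE, adjusted p = 0.0204), and it rested on dim signals. The call was lost without wild-type replicate 1, at -1.62 (adjusted p = 0.109), without wild-type replicate 2, at -3.12 (0.0716), and without wild-type replicate 3, at -3.18 (0.0708).

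The class A genes that were not called were *HSFA2A*, *HSFA2C*, *HSFA2D*, *HSFA4D*, *HSFA5* and *HSFA9*. *HSFA4D*, known in rice as the spotted leaf gene *SPL7*, had -0.56 ± 0.15 (SE, adjusted p = 0.0262), short of the 1.5-fold change. *HSFA9*, the gene whose genotypes did not overlap, showed -0.02 and *HSFA5*, which restrains HSFA4 in *Arabidopsis*, 0.13.

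Of the 5 class B factors 2 were called. *HSFB2A* had signals of 559 on the *sd37* array and 760.4 on the wild-type array of replicate 1, against 3455 and 2771 on the *sd37* and 3448 and 3087 on the wild-type arrays of replicates 2 and 3. Replicate 1 was below all other arrays in both genotypes, with a difference of -2.28 ± 0.14 (SE, adjusted p = 1.49e-05), or 4.87-fold lower, and its other probe set gave -1.55. *HSFB4B*, which in rice takes part in the control of the cytosolic ClpB gene, gave 192 on the *sd37* array and 148 on the wild-type array of replicate 1, against 62.7 and 61.8 on the *sd37* and 61.2 and 64.7 on the wild-type arrays of replicates 2 and 3. Both arrays of replicate 1 were above all others, at 1.43 ± 0.34 (SE, adjusted p = 0.0174). The adjusted p was 0.0677 without the wild-type array of replicate 1 and 0.144 without that of *sd37*. *HSFB1*, a repressor of the heat response in *Arabidopsis*, showed -0.38, *HSFB2B* -1.11 and *HSFB2C* -0.22, with none of them called.

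Of the 3 class C factors 2 were called, both lower. *HSFC2A* had 1012 on the *sd37* array and 721 on the wild-type array of replicate 1, against 2282 and 2156 on the *sd37* and 2969 and 3824 on the wild-type arrays of replicates 2 and 3. The replicate 1 arrays were the lowest of each genotype, and the difference was -1.68 ± 0.23 (SE, adjusted p = 0.000842). *HSFC1A*, with its signals above, was lower in replicate 1 as well, at -1.34 ± 0.22 (SE, adjusted p = 0.00246). *HSFC1B* had a difference of 0.99 ± 0.36 (SE, adjusted p = 0.0822) and was not called.

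**Figure D4:**
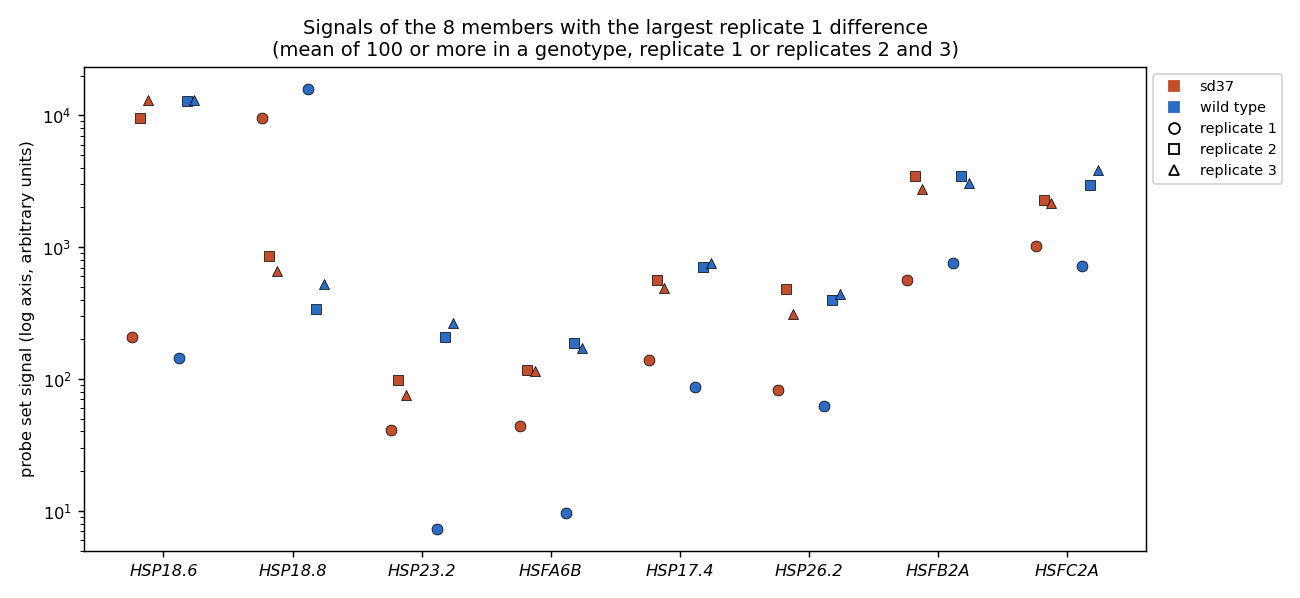
Probe set signals on a log axis, in arbitrary units, for the 8 genes with the largest replicate 1 difference among those with a mean of 100 or more in either genotype, in replicate 1 or in replicates 2 and 3, with *sd37* left of the wild type for each gene and a circle for replicate 1, a square for replicate 2 and a triangle for replicate 3. The circles lie below the other symbols of the same genotype in 7 genes and above them in *HSP18.8*.

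Of the 16 calls, 10 were made in each of the 6 fits that left out 1 array, and 9 of these also under quantile normalization, median scaling and a floor of 16. The 9 were the small heat shock proteins *HSP17.4*, *HSP18.6*, *HSP18.8* and *HSP26.2* and the factors *HSFA2E*, *HSFA3*, *HSFB2A*, *HSFC1A* and *HSFC2A*. Of these 9, 3 lost the call without the intensity trend, *HSFC1A* (adjusted p = 0.0653), *HSFC2A* (0.0613) and *HSFA2E* (0.0944). By ordinary analysis of variance 4 lost it, *HSFC1A* (adjusted p = 0.0857), *HSFC2A* (0.0935), *HSFA3* (0.0528) and *HSP17.4* (0.0553). The split of the calls by direction changed with the scaling. Calls over all probe sets were 48.8% higher with the deposited signals, 42.3% higher after quantile normalization and 14.2% higher after median scaling, which moved the median of all differences to -0.28. With median scaling 2 members were called higher and 20 lower. Relative to the median of all differences, which was 0.39 as deposited, *HSP22.3* and *HSFB4B* had 0.53 and 1.04, and both calls were lost under median scaling, with *HSP22.3* at 0.25 (adjusted p = 0.384) and *HSFB4B* at 0.76 (adjusted p = 0.149).

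Where a gene had several probe sets they did not always move together. The probe sets of *HSP18.6* and of *HSFB2A* all fell in replicate 1. For *HSFA2C* the probe set used showed 0.10, while the other gave 127 on the *sd37* array and 78.5 on the wild-type array of replicate 1, against 729.5 and 627 on the *sd37* and 628 and 541 on the wild-type arrays of replicates 2 and 3. This other probe set was lower in both genotypes, at -2.65 ± 0.20 (SE, adjusted p = 3.26e-05). The 3 probe sets of *HSFB2C* gave -0.22, -2.68 and 2.24, the last of these from signals of 161 or less on every array and the one before it from signals of 158 or less, so no direction was given for that gene. Both probe sets of *HSFA2D*, a gene that also carries the name *ARD2*, were higher in replicate 1, at 0.32 and 0.65, and neither was called.

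**Figure D5:**
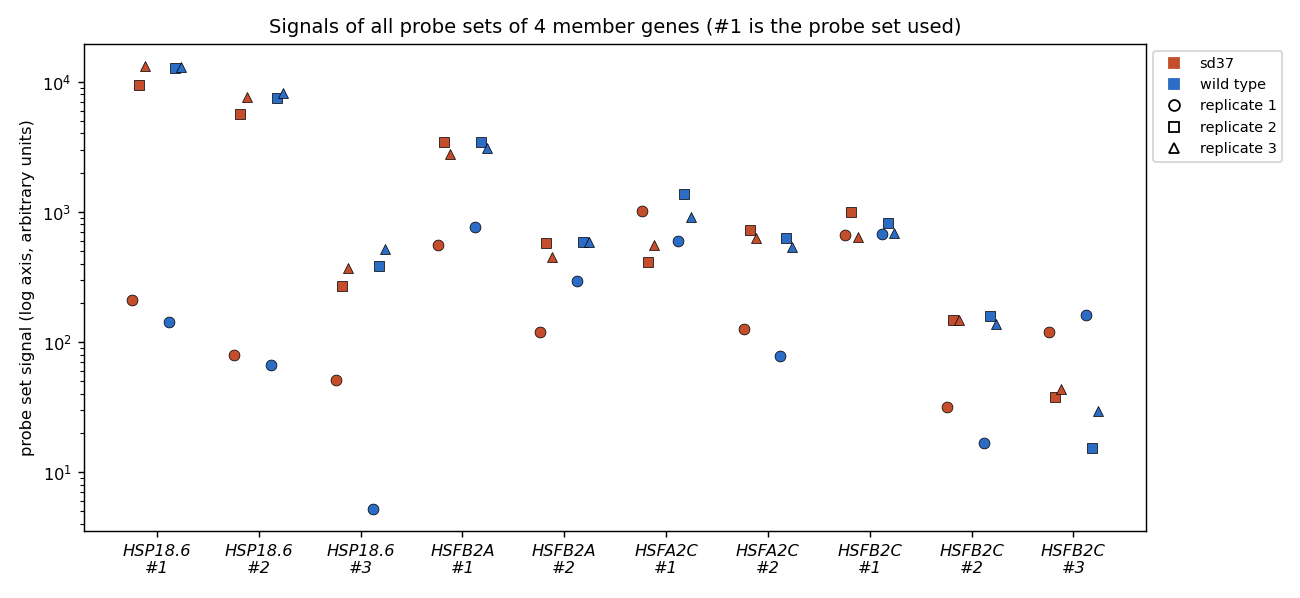
Signals on a log axis, in arbitrary units, of every probe set of *HSP18.6*, *HSFB2A*, *HSFA2C* and *HSFB2C*, with *sd37* left of the wild type, a symbol for each replicate number, and #1 the probe set used. The circles of replicate 1 lie below the other symbols in all probe sets of *HSP18.6* and *HSFB2A*, overlap them in #1 of *HSFA2C* and of *HSFB2C*, and lie above them in #3 of *HSFB2C*.

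The third comparison tested whether the genotype difference in replicate 1 was unlike that in replicates 2 and 3, with the spread taken from replicates 2 and 3. limma called 0 of the 39 genes and 0 of all probe sets (0%). At an unadjusted p under 0.05 there were 11 of the 39 genes, against 8.17% of all probe sets, and 7 of the 26 brighter members, against 10.6% of the probe sets at that signal. The replicate 1 difference had the same sign in both genotypes for 31 of the 39 genes. How often this held over all probe sets was not determined, so the count is not a result about the members. *HSFA2C* was among those with opposite signs, with 1.09 among the *sd37* arrays and -0.90 among the wild-type arrays and an interaction of 1.99 ± 0.43 (SE, unadjusted p = 0.00386, adjusted p = 0.573). *HSP18.8* had replicate 1 differences of 3.66 among the *sd37* arrays and 5.23 among the wild-type arrays, with an interaction of -1.58 ± 0.41 (SE, unadjusted p = 0.00958, adjusted p = 0.573). *HSP23.2* had -1.06 among the *sd37* arrays and -5.01 among the wild-type arrays, with an interaction of 3.95 ± 0.71 (SE, unadjusted p = 0.00169, adjusted p = 0.573). None of these passed after adjustment, and that of *HSP23.2* took in the dim wild-type signal of 7.3 in replicate 1. The other probe set of *HSFA2C* had the same sign in both genotypes, at -2.42 among the *sd37* arrays and -2.89 among the wild-type arrays.

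Other heat shock and chaperone genes were examined beside the members. The list held BiP, HSP90, HSP100 and Clp, J protein, DREB2 and APX genes. It held no HSP70 gene besides BiP and no HSP60 gene, so the counts do not cover these. Of 23 genes, 0 were called between the genotypes by limma, against 0% of all probe sets. At an unadjusted p under 0.05 limma gave 0, against 2.19% of all probe sets. With the replicate block it gave 1, against 6.08% of all probe sets and 9.38% of the brighter ones. This gene was *CLPD1* (unadjusted p = 0.00142, adjusted p = 0.426). In replicate 1, 7 of the 23 were called, 1 higher and 6 lower, against 19.2% of all probe sets and 42.0% of the brighter ones. *CLPB1*, the cytosolic disaggregase HSP101 that works with small heat shock proteins, was at 230.3 on the *sd37* array and 228 on the wild-type array of replicate 1, against 693 and 543 on the *sd37* and 636 and 776 on the wild-type arrays of replicates 2 and 3. Replicate 1 was the lowest in both genotypes, at -1.52 ± 0.18 (SE, adjusted p = 0.000395). The mitochondrial relative *CLPB-M* was lower too, at -2.50, as was *HSP81-1*, a cytosolic HSP90, at -0.67. The other HSP90 genes of the list, *HSP81-2* at 0.21 and *HSP81-3* at -0.11, were not called. Also lower were the chloroplast chaperone genes *CLPD1* at -1.98 and *CLPC3* at -1.34, and *DJC27*, a J protein gene, at -1.35. *CLPC2* was the gene called higher, at 1.35. *DREB2A*, which lies upstream of *HSFA3* in *Arabidopsis*, was not called, at 1.26 ± 0.44 (SE, adjusted p = 0.0748).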

How the data were processed

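The intensity values were used as deposited: linear probe set signals that, per the labels and methods, came from a service that labelled, hybridized, scanned and normalized the arrays for the authors. The algorithm was not given in the sources used here. Values under 1 (1.77% of all, with a median of 40.1) were set to 1 and log2 was taken. Of 57381 probe sets 123 controls were left out. Genes were named from the platform annotation and the synonyms of a RefSeq table of *japonica* rice, used for names and neighbours only. Of 22531 probe sets with a gene, 95 with several were left out. The members, the gene lists and the contrast of replicate 1 were chosen with earlier results of these data known.

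R 4.3.3 with limma 3.58.1 (lmFit, eBayes with an intensity trend) was used on all 57258 probe sets, and figures were drawn with Python 3.11.15 and matplotlib 3.10.9. Signals on every array are given for *HSP18.6*, *HSP18.1* and *HSP16.0*, for the 8 members of largest genotype and of largest replicate 1 difference with a mean of 100 or more in either genotype, in replicate 1 or in replicates 2 and 3, and for each called member. Names of the form BIP with a number above 100 were dropped from the chaperone list after they were seen, since they belong to another kind of protein. The labels call the arrays biological replicates, and p-values measure the spread between these.

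Deviations of each array from its genotype mean correlated, across probe sets, with 0.394, 0.134 and 0.16 for equal replicate numbers 1, 2 and 3. Replicates 2 and 3 correlated as much across numbers (0.164 and 0.13). The check thus sets replicate 1 apart but does not show that 2 pairs with 2 and 3 with 3. The numbers were still taken as pairs. The fits were checked on simulated data with 200 of 57258 probe sets changed. All of these were drawn from probe sets with a mean signal of 100 or more, so the rates do not cover dimmer members. A log2 change of 2 was recovered in 16% of cases for genotype, 87.5% with the block, 94.5% for replicate 1 and 50.0% for the interaction. Alternatives were another floor, quantile normalization, median scaling, a filter at a mean signal of 100 over all arrays, no intensity trend, ordinary analysis of variance, each array left out, the replicate block and, added after the data were seen, replicates 2 and 3 alone and replicate 1 as a batch. A planned search of promoters for heat shock elements was not made here.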

Additional observations from a re-analysis of the deposited data

How the results depend on the processing

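No genotype call was made among the 39 members under any alternative run. Over all probe sets the genotype count of 0 became 6 with the replicate block, 17 with replicates 2 and 3 alone and 10 with replicate 1 as a batch, the last 2 added after the data were seen, and it stayed at 0 when single arrays were left out. The replicate pairing through the block changed no call of a member.

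The count of replicate 1 calls, 11012, was 4519 without the intensity trend, 4766 by ordinary analysis of variance and 7059 to 10916 with an array left out, lowest without wild-type replicate 1. Among the members the 16 calls became 7 without the trend and 7 by ordinary analysis of variance, and 12 to 16 with an array left out. For the interaction, a floor of 16 gave 4543 calls, of which 3212 had all 4 arrays of replicates 2 and 3 at the floor, and among the members it called *HSP21.9* alone, at -2.27 (adjusted p = 0.0161), where the deposited signals gave no call.

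The median genotype difference with an array left out ran from -0.242 to 0.0941 for the small heat shock proteins and from -0.247 to 0.0876 for the HSFs. For the HSFs it was -0.0909 with replicates 2 and 3 alone and 0.0509 over all their probe sets. The median replicate 1 difference of the small heat shock proteins was 0 with a floor of 16, 0.143 after quantile normalization, 0.361 over all their probe sets and -0.159 to 0.549 with an array left out, so its sign rests on the *sd37* array of replicate 1 and on dim genes. For the HSFs it was -0.219 over all probe sets and -0.528 to -0.406 with an array left out.

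Genotype differences that changed sign were those of *HSP18.6* (-0.0412 with median scaling, -0.212 with replicates 2 and 3 alone, -2.13 to 1.95 with an array left out), *HSFA6B* (-0.622 with replicates 2 and 3 alone, -1.09 to 1.05), *HSFA3* (-0.874 to 0.0303) and *HSP18.8* (-0.916 to 2.05). The replicate 1 difference of *HSP18.1* ran from -0.447 to 4.38 with an array left out, and that of *HSP16.0* was -0.0536 with median scaling. Of the other values for single genes under these alternatives, 38 replicate 1 differences kept their direction and lost the call, and that of *HSP16.0* passed when dim probe sets were left out (adjusted p = 0.037). The causes were not tested. Signal limits the dim genes: 10 of the 39 members had no array at 100.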
